A study of Mus musculus with 8 samples.

Results

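Normal mouse testis was examined for how strongly each messenger RNA (mRNA) was occupied by ribosomes. The comparison sets ribosome-protected fragments (RPF, or footprints: the short pieces of mRNA that a ribosome shields from nuclease) against total RNA. Of the 8 libraries in the series, 4 were used: wild-type (WT) RNA replicates 1 and 2 and WT RPF replicates 1 and 2. All came from whole testes, taken at postnatal day 24 from mice of the C57BL/6 strain. The other 4 libraries, of the same assays, age, tissue and strain, came from mice null for Miwi, the PIWI protein encoded by Piwil1. They appear here only as a second set of values beside some WT results. A gene was represented by whichever of its transcripts had the highest mean fragment count, and 15580 of 21949 genes had enough counts to be tested.

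At this age the earliest germ cells have completed meiosis, and the tubules hold spermatogonia, spermatocytes and round spermatids beside Sertoli cells, with Leydig cells between the tubules. Germ cells are known for separating transcription from translation: many mRNAs for the sperm tail, the acrosome and the packaging of sperm DNA are made in round spermatids, kept in ribonucleoprotein particles and translated days later, when transcription has ceased. A ratio of footprints to RNA shows which mRNAs carry more or fewer ribosomes than their abundance alone would give. In a whole testis it sums over all cell types.

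The 2 WT RNA libraries held 15594048 and 13875633 fragments on the chosen transcripts, and the 2 WT RPF libraries held 28055296 and 17735802. Values of single genes are given as CPM, a count scaled to a common library total with TMM scaling factors, on which 1 fragment was worth between 0.0334 and 0.0742 CPM. Replicates correlated across genes at r = 0.993 in RNA and 0.987 in RPF on the log scale. The RPF pair spread more, with a chi-square per degree of freedom of 44.4 between its libraries, against 3.80 in RNA. The labels call the libraries biological samples but name no animals, so p-values measure the spread between 2 libraries a group, part of which may be technical. Most markers of the labelled tissue passed the filter on low counts: 42 of 42 meiotic prophase, 33 of 33 round spermatid, 32 of 32 Sertoli, 26 of 26 Leydig and 28 of 30 spermatogonial genes. The lists were drawn up with earlier results of these data known, so these counts are a weak check.

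Ribosome occupancy differed widely between mRNAs. The measure is the log2 ratio of a gene's share of footprints to its share of RNA, so 0 is the bulk of genes in these libraries and 1 is a 2-fold excess of footprints. Length cancels within a gene only if both assays were counted over the same stretch of the mRNA, which the sources used here do not give. Each ratio is given with an approximate standard error (SE) from an edgeR quasi-likelihood fit over the 4 libraries. This SE is the absolute ratio divided by the square root of the F statistic, and it can be too small where footprints are few. For Hist1h2br, with 4 RPF fragments, it was 0.30, beside an exact counting interval of -9.94 to -6.70. A call needs an adjusted p (Benjamini-Hochberg) under 0.05. Of 15580 genes, 11337 (72.8%) were called, 5758 (37%) with more footprints than their RNA share and 5579 (35.8%) with fewer. A call past 2-fold also has a ratio above 1 or below -1: 3885 genes (24.9%) lay that far above and 3801 genes (24.4%) that far below. The middle 50% of genes lay between -0.97 and 1.01, the 5th percentile was -2.72, the 95th was 2.5, and the 1st and 99th were -4.42 and 4.03. With so many genes past the threshold, a call alone says little about any list, and each list below is read against these shares.

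**Figure D1:**
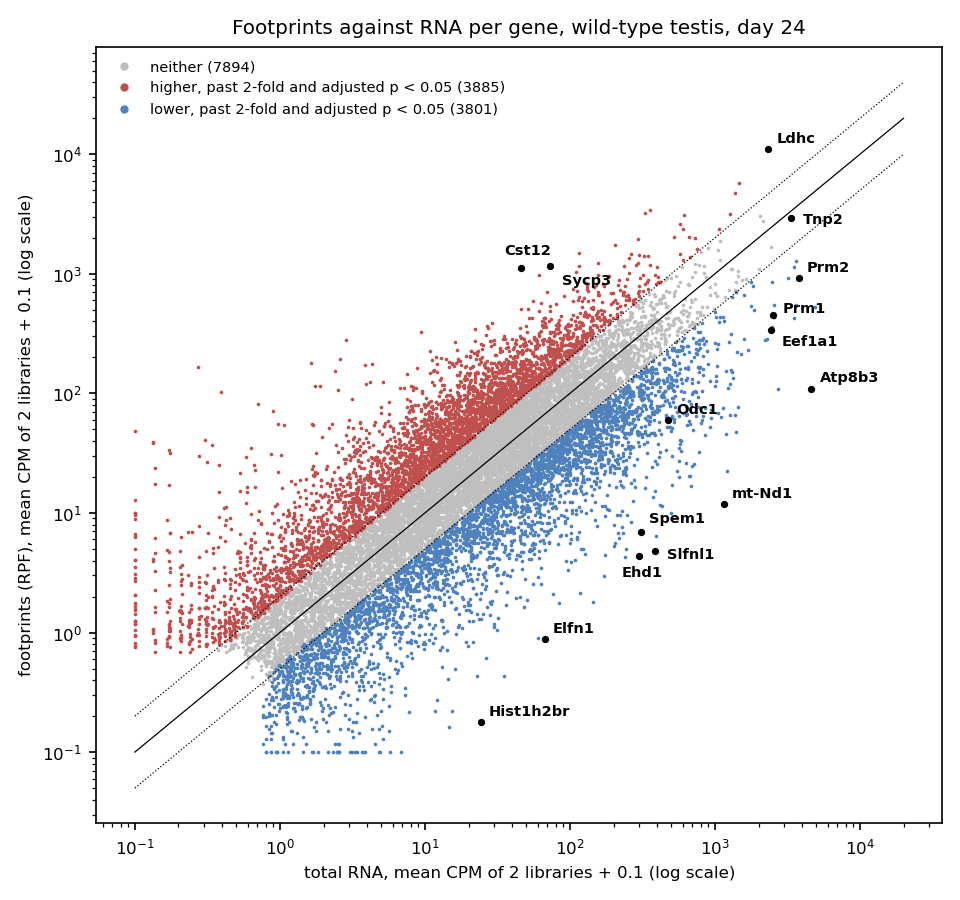
Mean CPM in the 2 WT RNA libraries (x axis, log scale) against mean CPM in the 2 WT RPF libraries (y axis, log scale), with 0.1 added, for the 15580 genes tested; the solid line is equality and dotted lines mark 2-fold. The 3885 red and 3801 blue genes lie past 2-fold at an adjusted p under 0.05, and Sycp3 and Cst12 stand far above the line while Slfnl1, Ehd1, Spem1 and Atp8b3 stand far below it.

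Among genes that met the conditions below, the most heavily occupied were a mixture of germ-cell, Sertoli-cell and housekeeping mRNAs with short coding sequences. The genes named are the 12 with the highest and the 12 with the lowest ratio among called genes that met these conditions. They had a mean RNA CPM of at least 10 and a coding length of at least 300 nt that is a multiple of 3. Their symbol was not a predicted or clone name. Their ratio had the same sign in each of the 4 pairings of an RPF with an RNA library. Cst12 (chr2:148789365-148793432, build GRCm38), a testis cystatin made by Sertoli cells, had 41.5 and 50.01 CPM in the RNA libraries and 1070.4 and 1173 CPM in the RPF libraries. Its log2 ratio was 4.62 ± 0.16 (SE, n = 2 libraries per assay, edgeR adjusted p = 1.15e-06). Sycp3 (chr10:88459587-88473236), a structural protein of the synaptonemal complex that holds paired chromosomes in meiosis, had 62.6 and 82.8 CPM in RNA and 1047 and 1277 CPM in RPF. Its ratio was 4.0 ± 0.19 (edgeR adjusted p = 1.9e-06). Both RPF libraries exceeded both RNA libraries by more than 10-fold for each of these genes, and the spread within an assay was small beside that gap.

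Housekeeping genes made up most of the other 10. Sub1, a transcriptional coactivator that binds single-stranded DNA, had 53.6 and 68.0 CPM in RNA and 863 and 1092 in RPF, a ratio of 4.01 ± 0.19. Txn1, the redox protein thioredoxin, reached 3.94 ± 0.25, Sarnp, a factor of mRNA export, 3.80 ± 0.18, and Ssr3, a subunit of the translocon-associated complex at the endoplasmic reticulum, 3.80 ± 0.21. Ccdc25 (4.4 ± 0.37), Zmat2 (3.96 ± 0.32), a splicing factor, Gca (3.77 ± 0.15), the calcium-binding protein grancalcin, and Hypk (3.76 ± 0.22), a partner of an N-terminal acetyltransferase, complete the group with Sap18b (4.06 ± 0.26) and the histone gene Hist2h2ac (4.09 ± 0.29). The RPF libraries disagreed most for Ccdc25, with 142 and 313 CPM, and Zmat2, with 228 and 462 CPM, yet the lower of these was still above 10 times the RNA level. Hist2h2ac belongs to a family of near-identical copies, and its value is uncertain because the treatment of fragments that map to several places is not given in the sources used here. These 12 genes had a median coding length of 536 nt.

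The poorly occupied extreme held mRNAs with almost no footprints, several of them abundant. Slfnl1 (chr4:120532024-120536662), a schlafen-like gene, had 409 and 362 CPM in RNA but 4.71 and 4.76 CPM in RPF, a ratio of -6.34 ± 0.17 (edgeR adjusted p = 1.01e-06). Ehd1 (chr19:6276896-6300096), an ATPase of endocytic recycling, had 327 and 268 CPM in RNA and 4.55 and 3.97 CPM in RPF (-6.12 ± 0.19, edgeR adjusted p = 1.01e-06). Ttbk1 (chr17:46442448-46487675), a kinase that phosphorylates tau and tubulin, had 414 and 376 CPM in RNA and 6.52 and 6.16 CPM in RPF (-5.96 ± 0.16). For each of the 3, both RPF values sat close together, and the RNA values were more than 50 times higher.

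Csnka2ip, named for its binding to casein kinase 2, showed 143 and 144 CPM in RNA against 2.14 and 1.29 in RPF (-6.33 ± 0.23). Elfn1, a synaptic leucine-rich repeat protein, reached -6.45 ± 0.21, Neurl1a, a ubiquitin ligase, -6.23 ± 0.21, and Mas1, a receptor for an angiotensin peptide, -6.00 ± 0.27. RPF fragments numbered 20 and 16 for Elfn1, 24 and 14 for Neurl1a and 13 and 4 for Mas1. With so few, these SE may be too small. Dynlt1f, one of a family of similar dynein light chain genes, stood at -5.82 ± 0.39. The mitochondrial genes mt-Nd1 and mt-Nd3 are taken up with the mitochondrial genome below. Hist1h2br and Zfp991 rest on very few footprints, 4 fragments over both RPF libraries for the former and 3 for the latter, against 687 and 414 RNA fragments. Scaled to library totals, the log2 ratio of the pooled counts was -8.06 for Hist1h2br (95% exact interval -9.94 to -6.70) and -7.74 for Zfp991 (-10.03 to -6.19), intervals that cover counting error only. Both genes have close relatives in the genome. Of the 20 of these 24 genes with coordinates in RefSeq, Sycp3 (with Chpt1), Gca (with Kcnh7), Mas1 (with Airn), Neurl1a and Zfp991 overlap another RefSeq gene. Fragments of overlapping genes could not be told apart because use of strand is not given. The limit also holds for genes named below, among them Ddit3, Papolb, Insl3, Tmem190, Tarbp2, Tdrkh and Tex12. The 6996 genes overlapped by another had a median ratio of -0.13, and the 8024 not overlapped 0.16. The part of overlap in these ratios was not tested.

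**Figure D2:**
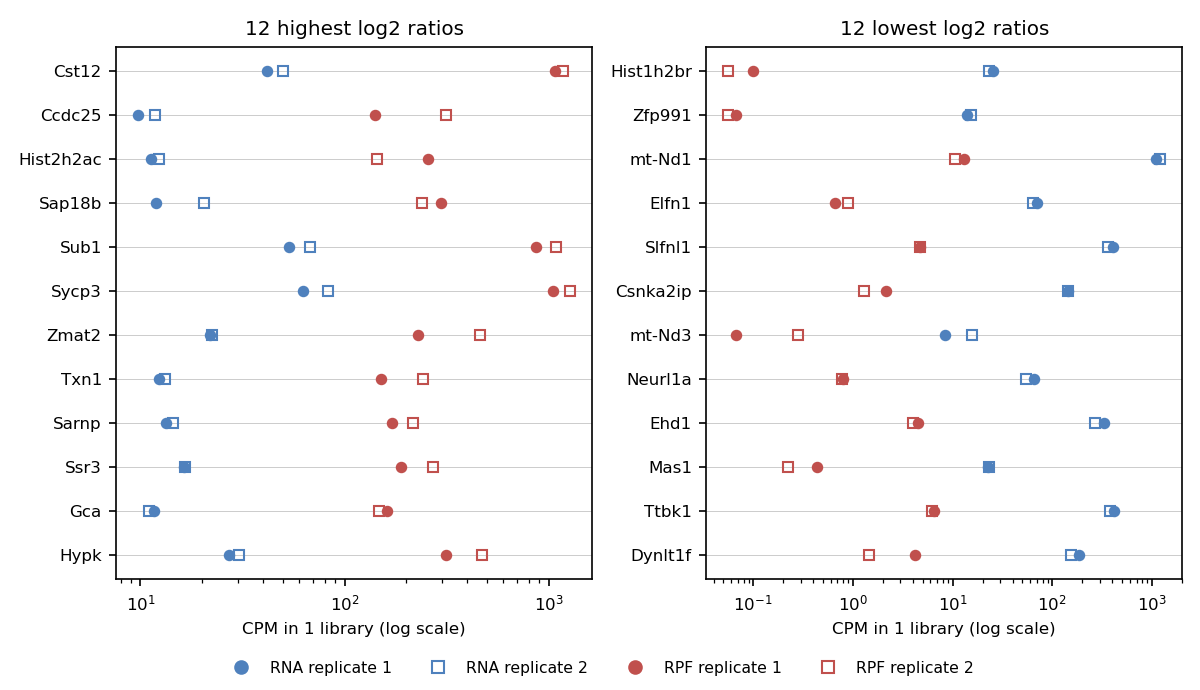
CPM in each of the 4 WT libraries (x axis, log scale) for the 12 genes with the highest (left) and lowest (right) log2 ratios; blue is RNA, red is RPF, filled circles are replicate 1 and open squares replicate 2. The 2 assays do not overlap for any of the 24 genes, by the way they were chosen. Replicates of an assay lie close together for most genes. Exceptions include Ccdc25, Zmat2, mt-Nd3 and Dynlt1f in RPF, and mt-Nd3 and Sap18b in RNA.

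The footprint pool was spread over many genes. The top 10 genes held 4.47% and 4.54% of all footprints in the 2 RPF libraries and 3.57% and 3.52% of RNA fragments in the 2 RNA libraries. Between genes, levels are compared per length, as the authors' FPKM (fragments scaled to coding length and library total). Genes are ranked among those with a coding length of at least 300 nt that is a multiple of 3 and a symbol that is not a predicted or clone name. Ldhc, the lactate dehydrogenase subunit of germ cells, led with a mean RPF level of 11024 FPKM from an RNA level of 1860.4 FPKM, and its CPM was 2251 and 2424 in RNA and 11022 and 10919 in RPF (log2 ratio 2.23 ± 0.12, edgeR adjusted p = 2.95e-06). Tnp2, a transition protein that replaces histones in spermatids, came second at 8449 FPKM of RPF, from 7531 FPKM of RNA.

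Other genes of the top 10 by these conditions were Ropn1l, a protein of the sperm fibrous sheath, Insl3, the peptide hormone of Leydig cells, Tcp1, a subunit of the cytosolic chaperonin, Skp1a, an adaptor of ubiquitin ligases, and the histones Hist1h4k and Hist1h2ba. Insl3, with 3591 FPKM of RPF, had 608 and 593 CPM in RNA and 1246 and 1385 CPM in RPF (1.13 ± 0.13). By RNA level the top 10, on the same conditions, were Prm2, Tnp2, Ubb, mt-Co1, H2afx, Smcp, Ldhc, Pebp1, Hist1h2ba and Gpx4, so 3 genes (Tnp2, Ldhc and Hist1h2ba) stood in both groups.

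Genes of late sperm formation were split, with more members low than high. The list for the sperm tail and late spermiogenesis had 19 of 38 members lower past 2-fold (24.4% of all genes) and 7 higher (24.9%), and a median of -0.96 (-1.07 to -0.85 over the 4 pairings). Spem1, needed for shedding of spermatid cytoplasm, had 316 and 303 CPM in RNA and 5.61 and 8.17 CPM in RPF (-5.51 ± 0.21, edgeR adjusted p = 1.24e-06). Tssk2, a testis-specific serine kinase, had 585 and 549 CPM in RNA and 26.8 and 27.9 in RPF (-4.37 ± 0.14), and Smcp, a protein of the mitochondrial capsule of sperm, 1079 and 938 and 159 and 71.5 (-3.12 ± 0.34). In the opposite direction lay Ropn1, of the fibrous sheath, at 2.04 ± 0.18, and Calr3, a chaperone of the endoplasmic reticulum in spermatids, at 1.81 ± 0.18.

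DNA-packaging genes showed a gradient between members. Prm1 (chr16:10796332-10796823), protamine 1, had 2432 and 2560.3 CPM in RNA and 485 and 427 CPM in RPF, a ratio of -2.45 ± 0.13 (edgeR adjusted p = 2.93e-06). Tnp1, transition protein 1, had 1456 and 1603 CPM in RNA and 800.0 and 980.3 in RPF (-0.78 ± 0.14, edgeR adjusted p = 0.00133). Tnp2 had 3411 and 3259 CPM in RNA and 3218 and 2693 in RPF, values that nearly meet (-0.17 ± 0.13, edgeR adjusted p = 0.264, not called). The linker histone of spermatids Hils1 was not called either (-0.13 ± 0.14), while Prm3 was higher in RPF (0.72 ± 0.13), though not relative to genes of its length (-0.32). Over the list, 2 of 7 were lower and 0 higher past 2-fold. Relative to genes of their length 6 were lower past 2-fold. Of all 15580 genes, 3124 were higher and 3543 lower past 2-fold on that measure, the background for every such count.

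Prm2, protamine 2, had 3898 and 3647 CPM in RNA and 755 and 1085 in RPF (-2.04 ± 0.18), but this value depends on the transcript. The tables hold 2 Prm2 transcripts with the same coding length of 321 nt and the same footprint counts (22601 and 19395), and their RNA counts are 58113 and 49154 for one and 10663 and 10645 for the other. With the canonical transcript, which has the lower RNA counts, the ratio was 0.27 and was not called (edgeR adjusted p = 0.207). Taking the longest transcript of each gene changed the transcript of 2643 of 15527 genes. It moved 135 genes (0.869% of the 15527) by more than 1 on the log2 scale, 36 of them to another sign. Most genes kept their transcript, so this share understates the effect where the transcript differs.

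Acrosome genes were divided evenly. Of 34 genes for the acrosome, the secretory cap of the sperm head, and for sperm-egg binding, 9 were higher and 7 lower past 2-fold, with a median of 0.07. Atp8b3 (chr10:80519584-80539154), a phospholipid-transporting ATPase of the acrosome, was the extreme: 4845 and 4405 CPM in RNA and 109.8 and 109 CPM in RPF, a ratio of -5.40 ± 0.15 (edgeR adjusted p = 1.01e-06). Adam3, which sperm need to pass the oviduct, stood at -3.09 ± 0.14. Spaca1, which acts in forming the acrosome, was high instead, with 107 and 119 CPM in RNA and 417 and 788 in RPF (2.41 ± 0.28), and Tmem190 reached 2.74 ± 0.16. The round spermatid transcription program had 14 of 33 lower and 5 higher (median -0.52). Its low members included Papolb, a cytoplasmic poly(A) polymerase, at -3.13 ± 0.14, and its high members Cyct, the testis cytochrome c, at 2.28 ± 0.16.

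Genes of meiotic prophase carried more footprints than their RNA share. In the meiotic prophase list 23 of 42 genes were higher past 2-fold and 2 lower, and the median was 1.25 (1.06 to 1.36 over the pairings) against 0.02 for all genes. Tex12, a central element protein of the synaptonemal complex, had 6.91 and 9.05 CPM in RNA and 68.7 and 88.5 in RPF (3.30 ± 0.20), next to Sycp3 described above. The low members were Mei1, needed for the breaks that start recombination, at -1.11 ± 0.17, and 4930432K21Rik at -1.12 ± 0.13. Genes of the meiotic divisions were nearer the bulk, with 9 of 30 higher, 4 lower and a median of 0.22. Cdk1, the kinase that drives entry into division, stood at 1.93 ± 0.14, and Espl1, the protease separase that releases sister chromatids, at -1.62 ± 0.13.

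The piRNA pathway, which silences transposons in germ cells, had 10 of 30 genes higher and 2 lower past 2-fold. Asz1 and Tdrkh, both of the mitochondrial surface where piRNAs are made, reached 2.61 ± 0.19 and 2.23 ± 0.15. Piwil1 itself had 551 and 532 CPM in RNA and 475 and 384 CPM in RPF, a ratio of -0.33 ± 0.14 that was not called (edgeR adjusted p = 0.0638). Among RNA-binding regulators of germ cells 13 of 52 were higher and 12 lower, shares near those of all genes. Dazl, which binds and promotes translation of germ-cell mRNAs, had 61.4 and 74.1 CPM in RNA and 311 and 470.3 in RPF (2.53 ± 0.22). Cpeb2, a cytoplasmic polyadenylation factor, had 659.6 and 715 and 94.2 and 67.2 (-3.09 ± 0.19), and Tarbp2, a binder of double-stranded RNA, 171 and 157 and 28.8 and 20.6 (-2.72 ± 0.19).

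Spermatogonial genes had 8 of 28 members higher and 4 lower. Dmrtb1, which governs the switch from mitosis to meiosis, was among the low ones, at 559 and 457 CPM in RNA and 66.0 and 64.1 in RPF (-2.96 ± 0.15), and the homeobox gene Rhox13 among the high ones (2.83 ± 0.20).

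Markers of somatic cells were more often high than low. Sertoli cells, which nurse the germ cells, had 15 of 32 markers higher and 0 lower past 2-fold, with a median of 0.74 (0.71 to 0.93). Cst9, another cystatin of these cells, had 67.3 and 71.2 CPM in RNA and 899 and 514 in RPF (3.35 ± 0.26). Leydig cells, the source of testosterone, had 12 of 26 higher and 1 lower (median 0.72). Ptgds, a prostaglandin D synthase, stood at 2.40 ± 0.14 and Fdx1, the ferredoxin that passes electrons to steroid-making enzymes, at 2.34 ± 0.18, while Hsd3b6, a steroid dehydrogenase with close relatives, was the low one (-1.24 ± 0.19).

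For the tubule wall and smooth muscle 10 of 23 were higher and 3 lower, and its median of 0.24 became -0.29 without RPF replicate 2. Macrophage and blood vessel genes had 10 of 30 higher and 5 lower. The tropomyosin Tpm1 (2.68 ± 0.15) and the macrophage protease Ctss (2.87 ± 0.20) were high, and the smooth muscle actin Actg2 (-2.40 ± 0.15) and von Willebrand factor Vwf (-1.99 ± 0.17) low. A whole-tissue ratio cannot tell a difference in occupancy within a cell type from a difference in how the cell types contribute to each assay.

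**Figure D3:**
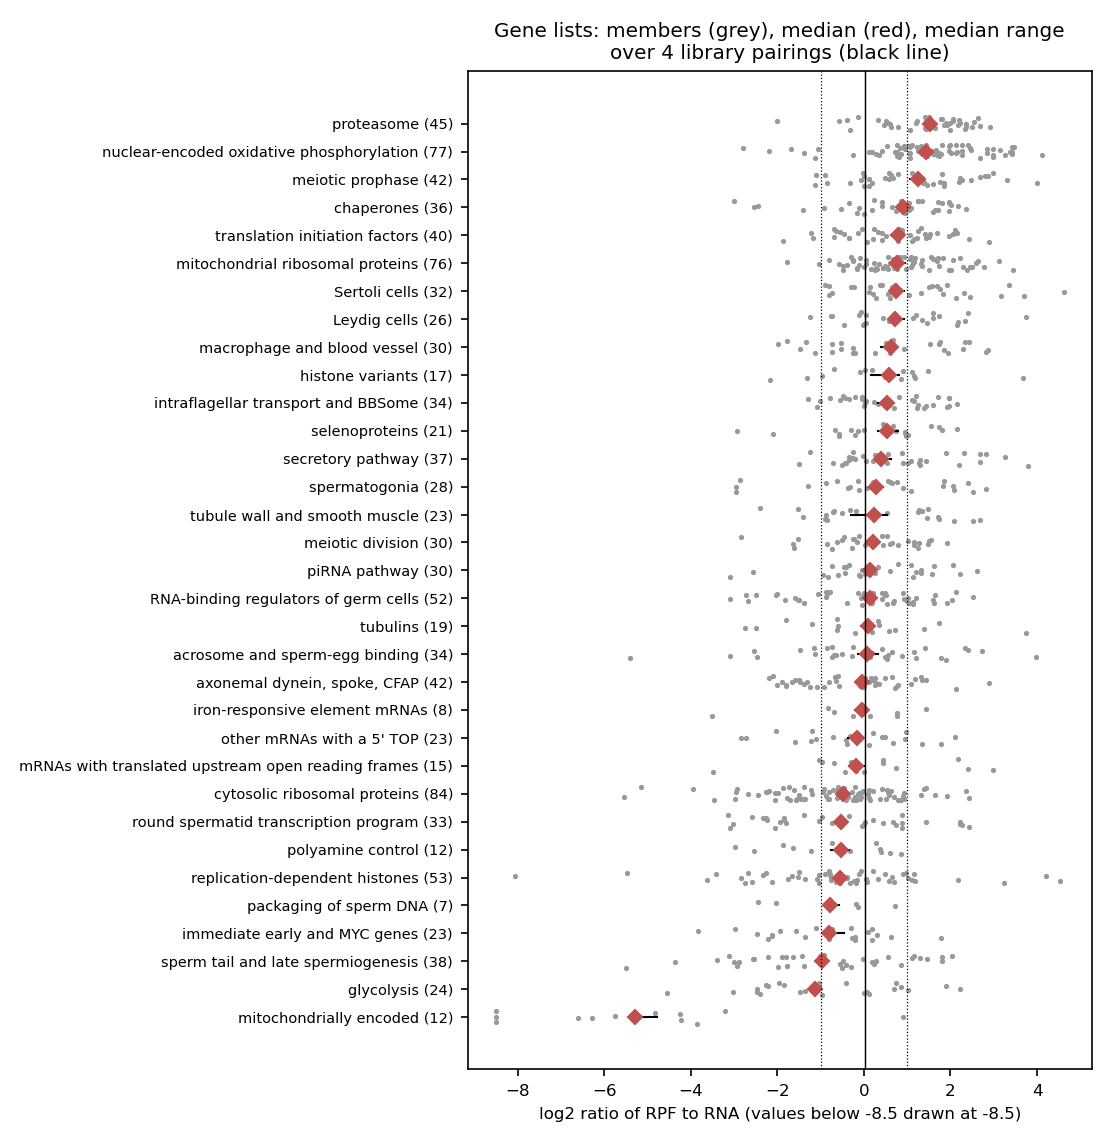
Log2 ratio of RPF to RNA (x axis) for the members of 33 gene lists (grey points; number tested in parentheses), sorted by median; the red diamond is the list's median and the black line the range of its median over the 4 pairings of an RPF with an RNA library. Proteasome, nuclear-encoded oxidative phosphorylation and meiotic prophase lie at the top and mitochondrially encoded genes far below the rest, and nearly every list has members on both sides of 0.

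Energy metabolism showed the widest contrast between lists. Nuclear genes of oxidative phosphorylation, the respiratory chain and ATP synthase, had 53 of 77 tested members higher and 6 lower past 2-fold, with a median of 1.44 (1.40 to 1.52). Ndufa1, a small subunit of complex I, had 9.93 and 12.2 CPM in RNA and 233 and 151 in RPF (4.12 ± 0.25). The 2 low extremes, Atp5g1 (-2.19 ± 0.19) and Atp5g2 (-2.80 ± 0.29), encode the same ring subunit of ATP synthase and are close in sequence to each other. Mitochondrial ribosomal proteins, also nuclear-encoded, had 34 of 76 higher and 2 lower (median 0.77), led by Mrps14 at 3.44 ± 0.20.

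Genes of the mitochondrial genome, which are translated inside the organelle by its own ribosomes, went the other way: 11 of 12 were lower past 2-fold. mt-Co1, subunit 1 of cytochrome oxidase, had 4598 and 5198 CPM in RNA and 552 and 503 in RPF (-3.22 ± 0.14), and mt-Nd1, of complex I, 1091 and 1215 and 13.0 and 10.5 (-6.61 ± 0.19). The exception was mt-Nd6, the one protein gene on the light strand, with 47.0 and 64.6 CPM in RNA and 76.0 and 134 in RPF (0.91 ± 0.27), a call that was lost without RNA replicate 1 (edgeR adjusted p = 0.114). Coverage of this genome was uneven even in RNA. mt-Co2, mt-Co3 and mt-Atp6 had mean RNA levels of 5.69, 4.74 and 3.79 CPM beside 4898 CPM for mt-Co1, and all 3 are listed at 0 in both RPF libraries. mt-Nd3 had 8.32 and 15.7 CPM in RNA and 0.0668 and 0.280 in RPF. Whether fragments that also match nuclear copies were dropped is not given, and its part in these values was not tested.

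Glycolysis was the lowest of the nuclear lists. It had 13 of 24 members lower and 3 higher past 2-fold, with a median of -1.14 (-1.23 to -1.08), and the 3 high ones included Ldhc and Ldhb (1.91 ± 0.13). Gapdh, the somatic glyceraldehyde-phosphate dehydrogenase, had 234 and 212 CPM in RNA and 11.2 and 7.78 in RPF (-4.54 ± 0.21), and RefSeq names 3 pseudogenes after it. Aldoart2, a germ-cell aldolase made by retroposition, stood at -3.02 ± 0.14. Germ cells carry their own copies of many such enzymes, so 19 pairs of a germ-cell gene and a somatic relative were set side by side. The pairs were chosen after values had been seen. Ldhc and Hspa8 each stood in 2 pairs, and the pair of Cct6b and Cct2 joined different subunits of the chaperonin. The germ-cell gene had the higher ratio in each of the 4 pairings in 12 pairs, the lower in 5, and pairings disagreed in 2.

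Individual pairs ranged widely. Ldhc exceeded Ldha, its somatic relative at -1.97 ± 0.13, by 4.20 on the log2 scale (4.11 to 4.29 over the pairings). Cyct exceeded Cycs, the somatic cytochrome c at -1.05 ± 0.23, by 3.33 (2.90 to 3.77), and Rpl10l, the germ-cell form of a ribosomal protein, exceeded Rpl10 by 2.88 (2.0 to 3.97). Ldha, Cycs and Rpl10 have 3, 3 and 6 named pseudogenes and their germ-cell partners have 0. In the other direction Pgk2, the phosphoglycerate kinase of germ cells, had a ratio of -1.85 ± 0.13 and differed from Pgk1 by -2.72 (-3.09 to -2.28), with an RNA level of 314 FPKM against 13.3. In the 9 pairs in which neither gene has a named pseudogene the germ-cell gene was higher in 4, lower in 3 and mixed in 2, against 8 higher and 2 lower in the 10 pairs with one. Among those 9, Hspa2 was above Hspa8 by 1.92 (1.82 to 2.02), Cox8c above Cox8a by 1.29 (1.19 to 1.36) and Slc2a3 above Slc2a1 by 0.83 (0.68 to 1.02). The 3 lower pairs were Pdha2 with Pdha1 at -1.18, Hspa1l with Hspa8 at -0.10 (-0.20 to -0.02) and Cct6b with Cct2 at -1.01. Cct6b and Cct2 encode different chaperonin subunits, so that pair does not set a gene beside its direct counterpart.

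Genes for protein turnover and folding were heavily occupied. The proteasome, which degrades tagged proteins, had 33 of 45 genes higher and 1 lower past 2-fold, and the highest median of the 33 lists with at least 5 genes tested, 1.53 (1.51 to 1.6). Psma8, the core subunit specific to germ cells, had 69.0 and 75.9 CPM in RNA and 517 and 569 in RPF (2.91 ± 0.14), and Psmb7, a catalytic subunit, 100.3 and 124 and 633 and 804 (2.68 ± 0.18). Psmf1, an inhibitor of the proteasome, was the low one at -2.01 ± 0.20, and the proteasome activator Psme4 was also called below 0, at -0.58 ± 0.13, but stood at 0.57 relative to genes of its length of 5529 nt, and the call was lost without RNA replicate 2 (edgeR adjusted p = 0.122).

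Chaperones had 17 of 36 higher and 4 lower (median 0.90). Cct8, a chaperonin subunit, stood at 2.37 ± 0.18 and Pdia6, a disulfide isomerase, at 2.17 ± 0.15, while Bag6, which guards newly made proteins, had 2302 and 2130.0 CPM in RNA and 295 and 261 in RPF (-2.99 ± 0.14). Translation initiation factors had 17 of 40 higher and 3 lower (median 0.80). Paip1 (2.89 ± 0.16) and Paip2b (2.42 ± 0.15), both partners of poly(A)-binding protein, were high. Pabpc1, poly(A)-binding protein itself, was low, with 3538 and 3437 CPM in RNA and 951 and 1351 in RPF (-1.6 ± 0.18, edgeR adjusted p = 7.18e-05). The secretory pathway had 14 of 37 higher and 2 lower.

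Cytosolic ribosomal protein genes had fewer footprints than their RNA share on balance: 30 of 84 were lower and 7 higher past 2-fold, with a median of -0.49 (-0.55 to -0.38). With a library left out the median lay between -0.54 and -0.38. Relative to genes of their length 3 were higher and 52 lower past 2-fold, against 3124 and 3543 of all 15580 genes. These mRNAs usually begin with a C and a run of pyrimidines, the 5′ terminal oligopyrimidine (TOP) tract, through which growth signals control their translation. RefSeq start sites (build GRCm38.p6) were matched for 63 of them, and the first 15 bases were searched on the transcribed strand for a C followed by at least 4 pyrimidines. Such a tract was found in 27 (42.9%), against 18.6% of 16512 promoters. The sequences below run from 10 bases before the annotated start to 20 bases into the transcript, with the tract in capitals. The genes shown were picked from the 27 because their ratios differed.
Rpl35: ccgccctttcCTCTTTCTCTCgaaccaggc
Rpl28: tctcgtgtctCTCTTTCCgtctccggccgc
Rps6: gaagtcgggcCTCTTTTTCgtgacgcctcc
Rps10: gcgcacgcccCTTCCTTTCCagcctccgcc
Rps15a: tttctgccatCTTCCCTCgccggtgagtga
Rplp2: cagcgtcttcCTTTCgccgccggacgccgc
The windows lie at chr2:39005112-39005141 for Rpl35, chr7:4792955-4792984 for Rpl28, chr4:86857348-86857377 for Rps6, chr17:27635225-27635254 for Rps10, chr7:118116128-118116157 for Rps15a and chr7:141447641-141447670 for Rplp2. Rpl28 and Rplp2 are on the plus strand and the other 4 on the minus strand.

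These 6 genes were picked by their ratios, so they cannot show whether tract and ratio go together. Rpl35 had a ratio of -2.68 ± 0.30, Rpl28 of -2.20 ± 0.26 and Rps6 of -1.2 ± 0.17, whereas Rps10 was at 0.20 ± 0.13, Rps15a at 1.33 ± 0.14 and Rplp2 at 1.65 ± 0.14. Over all matched ribosomal protein genes the median was -0.46 with the tract and -0.48 without it. Among the 16 of them with no named pseudogene it was 1.38 with the tract, from 3 genes, and -0.02 without it. A match in this window is a description of the annotated start only. As these mRNAs usually begin with a tract, genes without a match may still have one. The medians therefore do not compare genes with and without a tract, and the part of the tract was not tested. Other mRNAs with a known TOP tract had 7 of 23 lower and 3 higher. The elongation factors Eef1a1 (2483 and 2429.9 CPM in RNA, 409 and 273 in RPF, -2.85 ± 0.20) and Eef2 (-2.73 ± 0.14) were low, and the histone chaperones Nap1l1 (2.10 ± 0.27) and Npm1 (1.79 ± 0.17) high.

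Within the ribosomal protein list the number of pseudogenes moved with the ratio. Ribosomal protein genes are known for their many processed copies in the genome, which fragments of these mRNAs can match. The 20 genes with no pseudogene named after them in RefSeq had a median of 0.46, with 3 higher and 1 lower past 2-fold. The 29 genes with 1 or 2 had -0.51, with 2 higher and 9 lower. The 35 genes with 3 or more had -1.38, with 2 higher and 20 lower, and ranged from -5.54 to 1.93. Single genes departed from this order: Rps15a, with 8 named pseudogenes, stood at 1.33, and Rps12, with 24, at -1.50. Median RNA levels of the 3 groups were alike, 165, 183 and 171 CPM. Rpl29, with 5 named pseudogenes, had 241 and 243 CPM in RNA and 8.19 and 1.68 in RPF (-5.54 ± 0.54), and Rpl36, with 11, had 224 and 209 and 6.85 and 5.20 (-5.15 ± 0.19). Over all genes the median was 0.02 with no named pseudogene (15257 genes), 0.20 with 1 or 2 (262 genes) and -0.80 with 3 or more (61 genes), but 35 of those 61 are the ribosomal protein genes. The other 26 had a median of -0.004, with 10 higher and 9 lower past 2-fold. Only pseudogenes named after their source gene were counted, and the part of copies in the low ratios was not tested.

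Values of single histone genes are uncertain, since the replication-dependent genes are near-identical in groups. Of 53, 19 were lower and 8 higher past 2-fold. Hist1h2br stood at -8.07 and Hist1h2bl at 4.21 ± 0.25, although both encode histone H2B. Histone variants had 5 of 17 higher and 2 lower. H2afx, which marks DNA breaks and the silenced sex chromosomes, had 1138 and 1019 CPM in RNA and 500.0 and 364 in RPF (-1.32 ± 0.17).

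Several mRNAs with textbook translational control were measured one by one. Odc1, the rate-limiting enzyme of polyamine synthesis, had 469 and 480.0 CPM in RNA and 71.9 and 47.6 in RPF (-2.99 ± 0.21, edgeR adjusted p = 6.82e-06), and Oaz1, the antizyme that destroys it and is made by frameshifting, stood at -2.53 ± 0.14. Of 12 polyamine genes, 5 were lower and 0 higher past 2-fold. Ftl1, a ferritin chain whose mRNA is held by iron-regulatory proteins, had 117 and 120.2 CPM in RNA and 11.4 and 9.40 in RPF (-3.50 ± 0.16), with 2 named pseudogenes, and the transferrin receptor Tfrc stood at 1.44 ± 0.14.

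Atf4, whose upstream reading frames hold down translation outside stress, was not called (30.5 and 32.3 CPM in RNA, 22.0 and 29.6 in RPF, -0.29 ± 0.17, edgeR adjusted p = 0.167). Ddit3, under similar control, was low (-3.48 ± 0.37). Immediate early and MYC genes had 10 of 23 lower and 1 higher, and Klf4, a transcription factor of round spermatids and Sertoli cells, had 244 and 219 CPM in RNA and 15.5 and 17.3 in RPF (-3.82 ± 0.16). Selenoproteins had 5 of 21 higher and 2 lower. Gpx4, the glutathione peroxidase of the sperm midpiece, was not called (-0.22 ± 0.13, edgeR adjusted p = 0.162), and Selenov, restricted to testis, was low (-2.93 ± 0.14).

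Among genes of flagellum assembly, intraflagellar transport and BBSome genes, which carry cargo along the growing axoneme, had 14 of 34 higher and 3 lower, with a median of 0.54. Ift20 stood at 1.97 ± 0.15 and Ift140 at -1.08 ± 0.12. Axonemal dyneins, radial spokes and CFAP proteins, the motor and scaffold of the tail, had 7 of 42 higher and 14 lower. Relative to genes of their length, however, 11 were higher and 2 lower, against 3124 and 3543 of all 15580 genes. That is the same direction as intraflagellar transport (16 and 1). The low members named were long: Dnah10, a dynein heavy chain of 13773 nt, at -2.19 ± 0.13, and Hydin, of 15462 nt, at -2.10 ± 0.14, while Rsph1, a radial spoke protein of 903 nt, was at 1.44 ± 0.14.

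Coding length moved with the ratio over the whole table. The median was 1.12 in the 382 genes of at most 300 nt, 0.75 at 300 to 450 nt and 0.90 at 450 to 600 nt, and fell from there through 0.48 in the 2222 genes of 900 to 1200 nt, to -1.25 in the 871 genes over 4500 nt. Spearman's rho across 15580 genes was -0.382, given as a description, since genes share the same 4 libraries. RNA and RPF libraries differ in fragment size, with mean inserts of 266 and 244.5 nt in RNA and 28.5 nt in RPF per the labels, and its part in this trend was not tested. When the trend on length was removed, 10595 genes were called and 3124 were higher and 3543 lower past 2-fold.

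Lists moved with it to different degrees. Relative to genes of the same length the proteasome kept a median of 1.15 and meiotic prophase 1.10, and nuclear oxidative phosphorylation, with short genes, came down to 0.75 and mitochondrial ribosomal proteins to 0.17. Cytosolic ribosomal proteins, also short, went to -1.39, and their 20 genes with no named pseudogene to -0.39. Selenoproteins turned from 0.54 to -0.10 and histone variants from 0.58 to -0.41. Axonemal genes, the longest list, went to 0.48.

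Single genes named above also shifted. Relative to genes of their length, Dnah10 (-0.26), Hydin (-0.08), Ift140 (-0.13), Mei1 (-0.26), Insl3 (0.14) and mt-Nd6 (0.04) were no longer called. Tnp2 (-1.18), Gpx4 (-1.04), Hils1 (-1.01) and Atf4 (-0.72), not called before, were then called as low. Each of these 4, and Piwil1, also passed the threshold as low when 1 of the RPF libraries was left out, at ratios from -0.26 to -0.5. The lone RPF library is then assumed to vary like the RNA pair, which spread less, so these calls give no support.

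**Figure D4:**
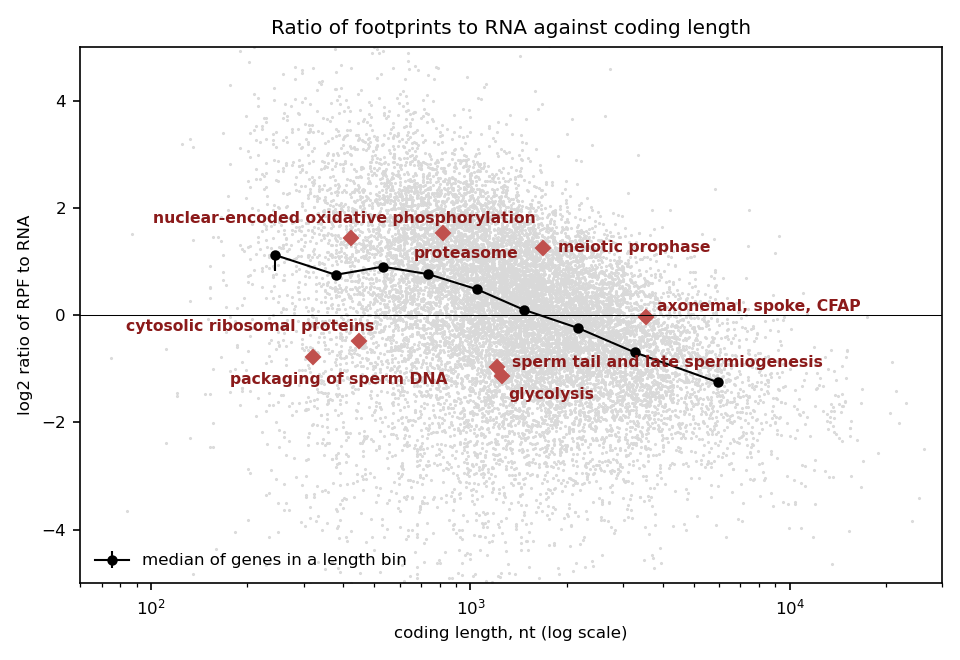
Log2 ratio of RPF to RNA (y axis) against coding length (x axis, log scale) for single genes (grey), for the median of genes in 9 length bins (black, with the range over the 4 pairings) and for the median of 8 lists (red diamonds at the list's median length). The black line runs from 1.12 at the shortest to -1.25 at the longest genes, and proteasome and meiotic prophase lie above it while ribosomal protein, glycolysis and late sperm genes lie below it; 8 lists are drawn and genes beyond 5 or -5 are not.

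RNA abundance also moved with the ratio. Genes with a mean RNA level of at most 1 CPM had a median of 1.12 (1097 genes), and the 676 genes above 300 CPM had -1.29, with 57.5% of them lower past 2-fold. RNA is the denominator of the ratio, and the filter kept genes with little RNA only where they had footprints. Among the 676 most abundant mRNAs only 5.33% were higher past 2-fold, Ldhc and Tcp1 among them.

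X-linked genes stood above the autosomes. This was noted after values had been seen. The 682 X-linked genes with a chromosome in RefSeq had a median of 1.04, with 50.3% higher past 2-fold, whereas the 14289 autosomal genes had -0.02, with medians of single autosomes from -0.39 to 0.38. The X chromosome is known to be silenced in meiosis, and the median RNA level of these genes was 5.46 CPM. At matched RNA levels the gap remained up to 100 CPM: 1.34 against -0.06 at 1 to 3 CPM, 0.97 against 0.20 at 3 to 10, 0.80 against 0.23 at 10 to 30, and 0.38 against -0.12 at 30 to 100. Only 12 X-linked genes exceeded 100 CPM, with a median of -0.92 against -0.76 in autosomal genes. Coding length was not matched in these bins: medians were 976.5 against 1314 nt at 1 to 3 CPM and 1257 against 1251 nt at 3 to 10. Relative to genes of their length the X-linked median was 0.83, with single autosomes from -0.36 to 0.30. RNA level and length were not matched together.

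**Figure D5:**
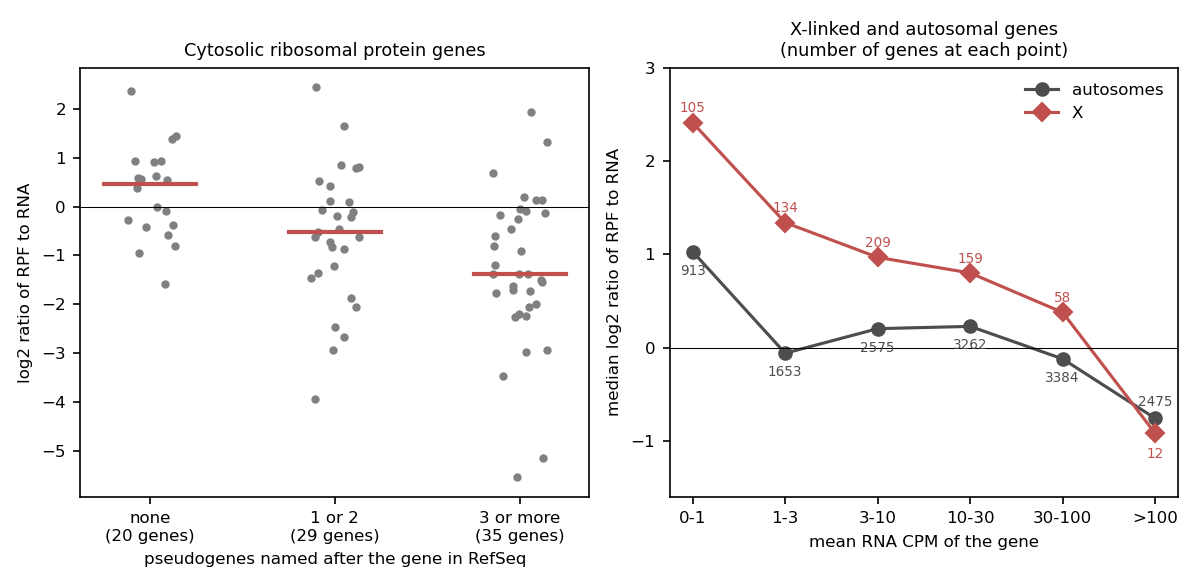
Left: log2 ratio of RPF to RNA for the 84 cytosolic ribosomal protein genes by the number of pseudogenes named after them in RefSeq, with medians in red; medians fall from 0.46 to -0.51 and -1.38. Right: median log2 ratio of X-linked (red) and autosomal (grey) genes in bins of mean RNA CPM, with the number of genes beside each point; X-linked medians are above autosomal ones in the 5 bins up to 100 CPM and not in the last.

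The Miwi-null libraries gave alike ratios for most genes. The 12 highest and 12 lowest genes were ranked on WT ratios alone. All 12 of the highest and all 12 of the lowest had the same sign there, from 3.08 to 6.77 and from -7.90 to -5.04. Of 3874 genes past 2-fold above in WT and measured in both, 85.0% also exceeded 1 in the null libraries, and of 3789 below, 81.4% were under -1. Across 15534 genes the ratios correlated at r = 0.917 (Spearman's rho 0.914), as a description across genes. Genes of late sperm formation were further from WT, with a list median of -0.96 in WT and -2.75 in the null libraries. Tnp2 stood at -0.17 and -2.51, and Prm1 at -2.45 and -5.06. Some other lists moved up instead. In the same order, medians were -1.14 and -0.16 for glycolysis and -0.81 and 0.26 for immediate early and MYC genes. Those of replication-dependent histones were -0.55 and 0.38. The proteasome (1.53 and 1.88) and meiotic prophase (1.25 and 1.09) moved less. These differences were not tested here.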

How the data were processed

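RNA and footprint libraries of WT testis were compared within one table per replicate number; groups and numbers came from the sample titles. The fragment counts per transcript are whole numbers deposited by the authors without normalization, per the file headers. The deposited FPKM values were made by the authors from those counts and the length column, and the deposited efficiency is their ratio, RPF over RNA, within 1e-08 in 100% of rows. Tools listed, per the submitters' processing notes, are STAR 2.5.0a, Bowtie 1.2.2 and cutadapt 2.5, with build GRCm38. How fragments were counted, with or without strand, and what was done with those mapping to several places is not given in the sources used here. As 84.7% of lengths are multiples of 3, the length column is mostly coding length. Which stretch of an mRNA the counts cover is not given: RNA counts of the Prm2 transcripts differ at equal coding length and equal RPF counts, so RNA fragments may include ones outside the coding sequence. A symbol with several gene IDs entered lists once, by the ID with most fragments.

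Counts were fitted in R 4.3.3 with edgeR 4.0.16 (TMM scaling, filterByExpr with a minimum count of 10 and total of 15, robust quasi-likelihood test, 2 residual degrees of freedom), on the 4 WT libraries, and tested on simulated data. Pairings used a pseudocount of 0.1 CPM. Null ratios came from an 8-library fit. Named genes were the 12 highest and 12 lowest, the 10 highest by FPKM in each assay, up to 2 per list and direction (RNA at least 5 CPM), and 11 set by name. The members, the 34 lists and this rule were chosen with earlier results of these data known. Some genes that the rule named are not reported here. Chromosomes and sequences are RefSeq's (GRCm38.p6). Alternatives included DESeq2 1.42.0 and limma 3.58.1. Replicate numbers showed little pairing (r = 0.0721 over 10122 genes), so no block was used.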

Additional observations from a re-analysis of the deposited data

Results flagged for a closer look

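Espn, an actin-bundling protein counted among the Sertoli markers, had opposite signs in the 2 genotypes. Its log2 ratio of RPF to RNA was -0.89 ± 0.15 in WT and 0.203 ± 0.13 in the Miwi-null libraries, the latter near 0. Every pairing of an RPF with an RNA library had the sign of its genotype. Of 9639 genes with a mean WT RNA level of at least 10 CPM, 88.1% had the same sign in both genotypes. A change of sign is therefore not particular to Espn. The difference itself was not tested. With 2 libraries in each group, no gene could be examined for a single library far from the others.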

How the results depend on the processing

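Counts of called genes stayed within 1.5 times under every alternative tried, from 9112 to 12496 when a library was left out. With the replicate number as a block, 11465 genes were called against 11337 without it; the numbers pair nothing by the labels. Without TMM the median of all genes moved from 0.02 to 0.13 and the split became 6128 higher and 5085 lower; list medians should be read relative to that shift. Removing the length trend turned the medians of selenoproteins (-0.105), histone variants (-0.415), axonemal genes (0.478), mRNAs with upstream reading frames (0.273, from -0.180), tubulins (-0.058, from 0.091) and acrosome genes (-0.013), and the ratios of Ier2 (-0.150), Prm3 (-0.321), Psme4 (0.567) and Tjp1 (0.255). The longest transcript turned Prm2 (0.269). Leaving out genes with a named pseudogene, a setting added after seeing the data, turned ribosomal proteins to 0.458 and iron-responsive mRNAs to 0.146; the latter list, at -0.05, was also 0.0587 without TMM and lay between -0.117 and 0.0435 when a library was left out. Without RPF replicate 2 the tubule wall list turned to -0.293, and without RPF replicate 1 the acrosome list to -0.074 and upstream reading frames to 0.023 (-0.256 to 0.023 over the libraries left out). The cause was not tested. Of 166 named genes, 160 were called and 22 lost the call under at least 1 alternative. All ratios are relative: no absolute amount of ribosomes was measured.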
